A study of Mus musculus with 45 samples.

Results

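Regulators of G protein signaling (RGS proteins) were followed through 10 of the 54532 genes in the count table: Rgs2, Rgs4, Rgs7, Rgs8, Rgs9, Rgs10, Rgs12, Rgs14, Rgs16 and Rgs17. They were taken by name, as the rows whose Ensembl identifier belongs to these mouse symbols. The set was chosen with earlier results of these data known, so its counts beside those of all genes are a description. The samples were whole cultures of primary hippocampal neurons from newborn C57BL/6N mice, grown with 1% rat serum and given AraC, an inhibitor of cell division, on day 3 in vitro, with the treatments labelled for day 10 or 11. Cultures were left untreated (control) or received 50 µM bicuculline (Bic), a blocker of GABA type A receptors that sets off recurrent action potential (AP) firing, for 0.5, 1 or 2 h. The short protocol (SP) gave 0.5 h of Bic alone and then a further 0.5 h with 1 µM tetrodotoxin (TTX), which blocks sodium channels and stops AP firing, or with TTX and 30 µM NMDA, the agonist of NMDA receptors. The long protocol (LP) began with 1 h of Bic alone, and the intervention then lasted 1 h and was TTX, TTX plus NMDA, or 50 µM TBOA, a blocker of glutamate transporters. Bic stayed in the medium during every intervention. Each of the 9 conditions had 5 libraries, numbered 1, 3, 6, 7 and 8, which gave 45 libraries in all. Each number was read as 1 culture preparation. The passive effect sets TTX against Bic given without a break for the same time, the active effect compares TTX/NMDA with TTX, the total effect compares TTX/NMDA with uninterrupted Bic, and the glutamate spillover effect compares TBOA with 2 h of Bic.

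RGS proteins speed up the hydrolysis of GTP by the alpha subunits of heterotrimeric G proteins and thereby shorten the signal of a G protein-coupled receptor. They fall into families. The small R4 proteins (here Rgs2, Rgs4, Rgs8 and Rgs16) consist of little more than the catalytic RGS domain, and RGS2 acts mainly on Gq. The R7 proteins (Rgs7 and Rgs9) work as complexes with the G beta subunit Gnb5 and with membrane anchors. The R12 family holds Rgs10, a very small protein, together with Rgs12 and Rgs14, which carry further domains that bind Ras-like GTPases and inactive G alpha subunits, and Rgs17 belongs to the RZ family, which acts on Gz and Gi. Rgs2 and Rgs4 are known as transcripts that neurons raise or lower with activity, and the RGS4 and RGS16 proteins are substrates of the N-degron pathway, which gives them a short life.

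The 10 genes lie on 6 chromosomes of the mouse genome (GRCm38, GENCODE M21 positions), and 5 of them are on chromosome 1: Rgs2 (chr1:143999338-144004161), Rgs8 (chr1:153653025-153700323), Rgs16 (chr1:153740349-153745468), Rgs4 (chr1:169741477-169747642) and Rgs7 (chr1:175059087-175492500). Rgs8 and Rgs16 are neighbours on the same strand with 40025 bases between them. Antisense genes overlap exons of Rgs8 (Gm29529), Rgs12 (Gm43791) and Rgs16 (Gm28513) on the opposite strand, and the reads were counted by strand. RefSeq promoter windows (GRCm38.p6) were at hand for 9 of the 10 members, 12 windows in all. Those of Rgs2, Rgs4 and Rgs16 are shown because these 3 transcripts rose under Bic. Each is the 250 bases before the RefSeq start, read 5′ to 3′ along the gene; capitals mark TGACG (the core of the cAMP response element), the CCAAT box and TATAAA, each on either strand.
Rgs2 (chr1:144004150-144004399, minus strand): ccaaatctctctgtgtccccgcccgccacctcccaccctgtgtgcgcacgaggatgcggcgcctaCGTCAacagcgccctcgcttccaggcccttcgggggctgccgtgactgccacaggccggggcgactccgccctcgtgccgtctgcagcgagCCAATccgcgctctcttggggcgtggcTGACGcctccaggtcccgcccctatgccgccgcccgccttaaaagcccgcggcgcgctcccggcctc
Rgs4 (chr1:169747643-169747892, minus strand): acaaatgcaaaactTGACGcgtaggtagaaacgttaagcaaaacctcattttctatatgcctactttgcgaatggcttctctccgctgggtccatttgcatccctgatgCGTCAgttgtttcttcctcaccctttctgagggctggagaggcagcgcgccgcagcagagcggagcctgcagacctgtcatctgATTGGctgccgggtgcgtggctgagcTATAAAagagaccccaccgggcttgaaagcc
Rgs16 (chr1:153740103-153740352, plus strand): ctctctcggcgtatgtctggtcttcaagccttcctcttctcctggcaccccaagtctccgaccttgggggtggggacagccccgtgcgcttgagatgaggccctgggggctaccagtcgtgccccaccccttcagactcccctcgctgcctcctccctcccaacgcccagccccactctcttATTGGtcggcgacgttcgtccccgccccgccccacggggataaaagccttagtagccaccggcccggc

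TGACG stood 2 times in the Rgs2 window and 2 times in the Rgs4 window, 1 time in a window each of Rgs8 and Rgs12, and not in the Rgs16 window or the other member windows. Of all 32851 RefSeq promoter windows of 300 bases, 20.8% held TGACG on either strand. The full site TGACGTCA, of which TGACG is a part, was in none of the 12 member windows and in 1.79% of all windows. A CCAAT box was in the windows of Rgs2, Rgs4, Rgs16 and Rgs9 and in 2 of Rgs8, which makes 6 of 12, and in 37.4% of all. TATAAA stood at position -31 of Rgs4 and at position -195 of Rgs9 and was in 13.6% of all windows. The AP-1 site TGAGTCA, whose reverse complement is TGACTCA, matched in 1 of the windows of Rgs12 and in that of Rgs17, against 5.2% of all windows. The EGR sites GCGTGGGCG and GCGGGGGCG matched in none of the 12 and in 0.612% and 2.91% of all windows. These matches describe letters in the windows and are not evidence of binding.

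The libraries held between 11316580 and 81129276 counts on genes, with a median of 26239614. Levels are given as CPM (the count divided by the library's effective size from TMM normalization over the 45 libraries), and changes as log2 fold changes from edgeR's quasi-likelihood test on the libraries of the compared conditions, with the standard error (SE) and a p-value adjusted over all genes tested; a gene with an adjusted p under 0.05 was called. All 10 RGS genes were tested in every comparison. Shares of all genes called are over every gene with at least 1 read, including genes with very few. The fits with the preparation as a block used a low-count filter instead. The scarcest, Rgs9, had between 69 and 625 reads per library, and the most abundant, Rgs4, between 4967 and 100751. Of the markers of other cells, every one on the lists had reads in every condition. The summed level of 6 microglial markers, from 4.43 to 8.76 CPM, and of 5 vascular markers, from 2.92 to 10.6 CPM, was low throughout. The 5 astrocyte markers summed to a median of 459 CPM in the control and 519 CPM after 2 h Bic, and reached 911 CPM (range 680 to 1419) after LP TTX/NMDA, against 594 CPM (range 384 to 798) after LP TTX. The 6 neuronal markers summed to a median of 4576 CPM after LP TTX/NMDA, where every library was below every LP TTX library (lowest 5615 CPM). In the LP comparison of TTX/NMDA with TTX, 5 of 5 astrocyte markers, 3 of 6 oligodendrocyte lineage markers, 2 of 6 microglial markers, 2 of 5 vascular markers and 1 of 3 GABAergic markers rose, 3 of 6 neuronal markers fell, and of 4 CA2 markers 1 rose and 1 fell. In the SP comparison of TTX/NMDA with TTX, 2 of 3 GABAergic markers rose, and 2 of 6 neuronal and 1 of 4 CA2 markers fell. No marker of the other lists was called there. The shares of all genes called were 23.3% in LP and 4.28% in SP. The part of these shifts in the results for the RGS genes was not tested. In whole cultures fewer cells of a type and less RNA per cell cannot be told apart.

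In untreated cultures Rgs4 was the most abundant RGS transcript, with 162 CPM per kilobase of exons (500 CPM). The other R4 gene with a high level was Rgs2, with 26.2 CPM per kilobase, below Rgs4 in all 5 preparations without overlap. Rgs7 (12.7), Rgs10 (11.9), Rgs8 (8.62) and Rgs17 (8.59 CPM per kilobase) followed, each overlapping its neighbour in this order over the preparations. Rgs12 (4.38), Rgs16 (4.26) and Rgs14 (4.25 CPM per kilobase) formed a lower group whose members overlapped each other and did not overlap Rgs17. Rgs9, which is best known from striatal neurons and photoreceptors, was lowest at 1.14 CPM per kilobase and did not overlap Rgs14. Rgs14, a marker of CA2 pyramidal neurons in the hippocampus, was thus present at a low level, along with the other 4 CA2 markers on the list, whose sum lay between 148 and 169 CPM in the control libraries.

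**Figure D1:**
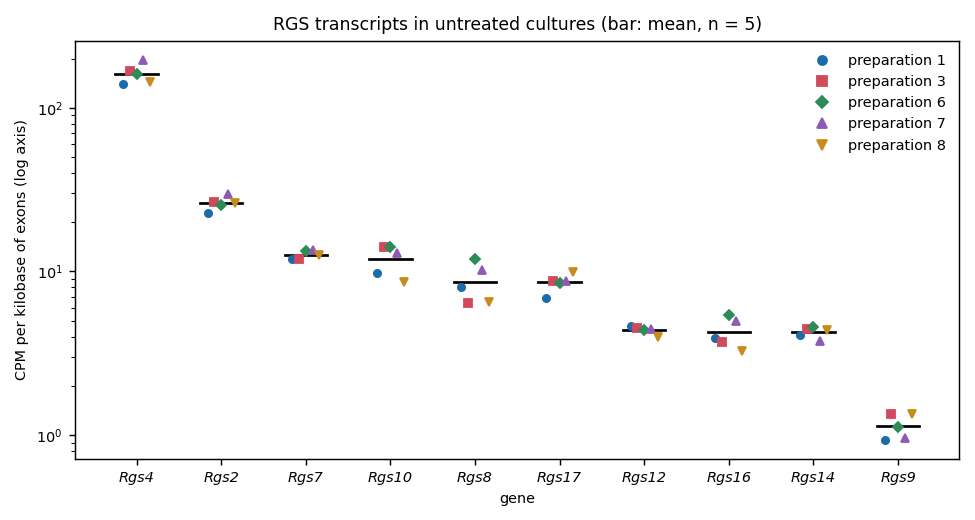
Level of the 10 RGS transcripts in untreated cultures, in CPM per kilobase of exons on a log axis, with 1 symbol for each culture preparation and a bar at the mean of 5 libraries. Rgs4 lies above all others at a mean of 162, Rgs2 is next at 26.2, and Rgs9 lies lowest at 1.14.

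Uninterrupted AP firing raised Rgs2, Rgs4 and Rgs16, all of the R4 family, step by step over 2 h. After 0.5 h of Bic, 2 of the 10 members had risen, against 0.289% of all genes called. After 1 h, 3 of 10 had risen (1.16% of genes called), and after 2 h, 5 of 10 (9.02% of genes called). No member was called lower at any of these times. Of 11 other RGS genes, some with very few reads, 0 were called higher or lower at any of these times. Because the members were chosen with earlier results known, these shares cannot show that RGS genes respond more often than other genes.

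Rgs2 had 82.4, 96.7, 92.8, 108 and 95.3 CPM in the control libraries of preparations 1, 3, 6, 7 and 8. After 0.5 h of Bic it had 120, 137, 191, 151 and 177 CPM, after 1 h 236, 207, 248.6, 235 and 278 CPM, and after 2 h 387, 364, 373, 373 and 373 CPM. No condition of this course overlapped the one before it. The log2 fold change over the control was 0.71 (SE 0.10, adjusted p = 9.02e-07) after 0.5 h, 1.34 (SE 0.09, adjusted p = 2.11e-15) after 1 h and 1.96 (SE 0.08, adjusted p = 2.3e-20) after 2 h. Rgs2 was the member with the largest change after 2 h, a 3.9-fold rise. Within this Bic course its 5 libraries lay closest together after 2 h, with an SD of 8.09 around a mean of 374 CPM.

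Rgs4 had 432, 517, 496, 609 and 448 CPM in the control, and 591, 675, 798, 742 and 787 CPM after 0.5 h of Bic. It rose in every preparation, although the lowest library after 0.5 h overlapped the control range (log2 fold change 0.52, SE 0.09, adjusted p = 4.8e-04). After 1 h it had 995, 1019, 1025, 1124 and 1097 CPM, a log2 fold change of 1.07 (SE 0.09, adjusted p = 3.82e-12). After 2 h it had 1597, 1562, 1463, 1592 and 1487 CPM, a log2 fold change of 1.61 (SE 0.09, adjusted p = 1.18e-16), or a 3.05-fold rise. In mean level it went from 500 CPM (SD 69.8) to 1540 CPM (SD 61.5), whereas Rgs2 went from 94.9 CPM (SD 8.97) to 374 CPM.

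Rgs16 started from a much lower level, with 9.23, 8.65, 12.6, 11.7 and 7.65 CPM in the control. After 0.5 h of Bic it had 8.96, 16.5, 15.8, 17.2 and 9.80 CPM, higher in 4 of 5 preparations and not past the threshold (log2 fold change 0.45, SE 0.14, adjusted p = 0.457; 0.0171 without preparation 1, the one in which it was not higher). After 1 h it had 16.5, 19.8, 22.1, 19.01 and 16.5 CPM, above every control library (log2 fold change 0.90, SE 0.12, adjusted p = 6.66e-07). After 2 h it had 25.9, 30.0, 30.3, 26.4 and 22.5 CPM, a log2 fold change of 1.41 (SE 0.11, adjusted p = 9.09e-12).

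**Figure D2:**
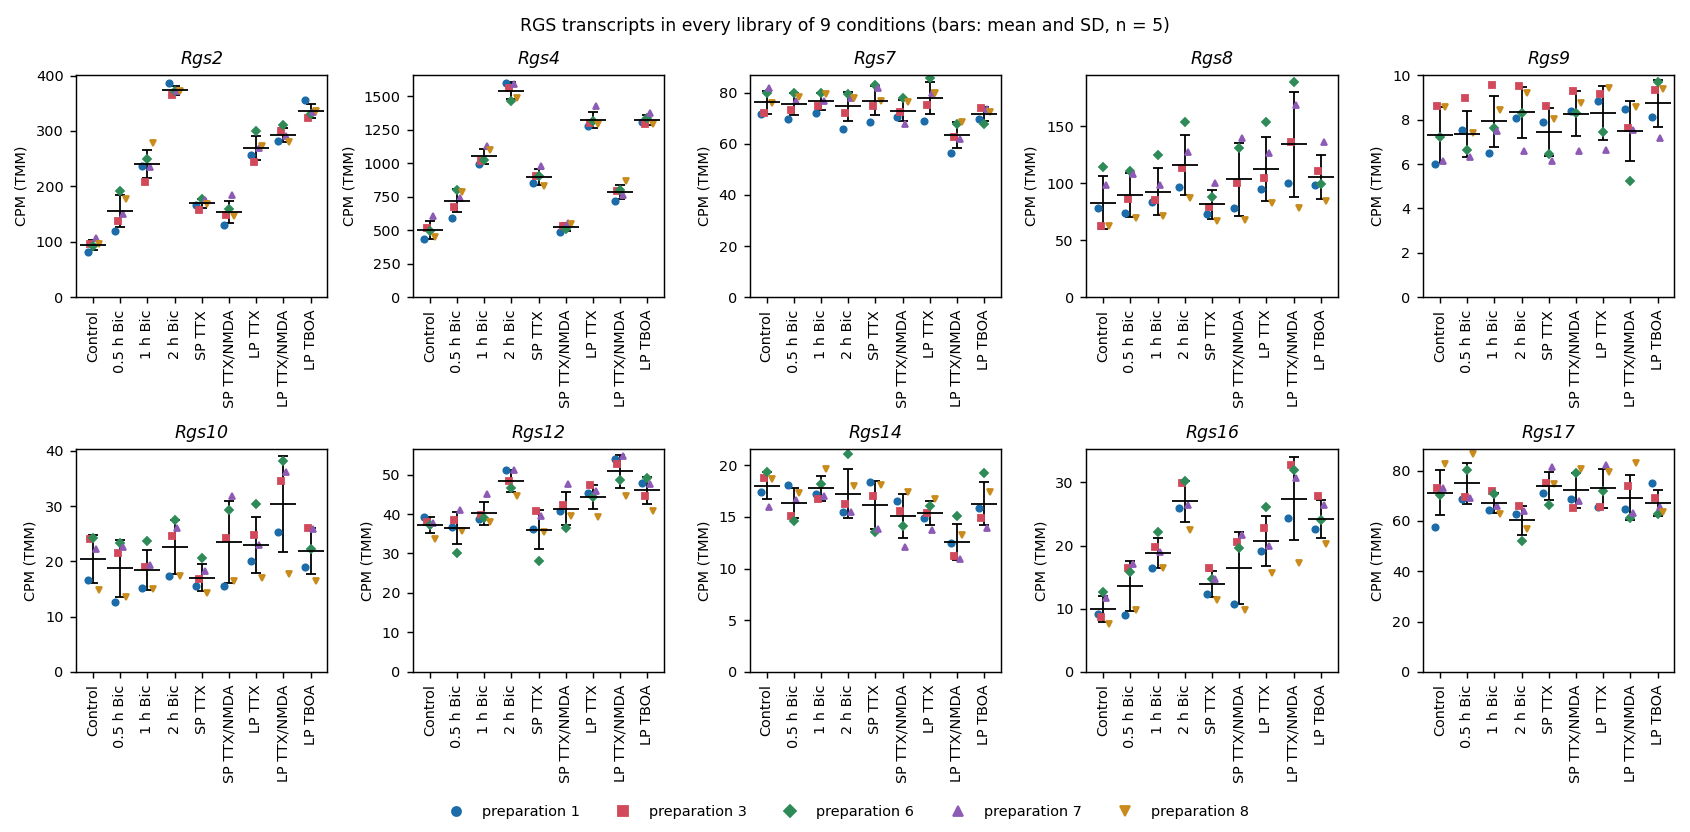
TMM-normalized CPM of the 10 RGS genes in all 45 libraries, by condition, with 1 symbol for each culture preparation and bars for the mean and SD of 5 libraries; each panel has its own linear axis from 0. Rgs2, Rgs4 and Rgs16 climb from control to 2 h Bic, and in the panel of Rgs4 both TTX/NMDA conditions lie far below their TTX conditions, at 526 against 894 CPM in SP and 786 against 1321 CPM in LP.

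The remaining members moved less under Bic. Rgs8, the fourth R4 gene, was higher in all 5 preparations after 2 h, with a mean of 116 CPM (SD 26.3) against 83.1 CPM (SD 23.1) in the control and overlapping groups (log2 fold change 0.46, SE 0.13, adjusted p = 0.02); the call was lost with a low-count filter (adjusted p = 0.0805) and with all 45 libraries in 1 fit (adjusted p = 0.146). Rgs12 rose from 39.3, 38.1, 37.2, 37.8 and 33.7 CPM to 51.0, 48.3, 46.6, 51.2 and 44.6 CPM, without overlap (log2 fold change 0.37, SE 0.08, adjusted p = 8.73e-04). Rgs17 had 71.3 CPM in the control and 60.3 CPM after 2 h, lower in 4 of 5 preparations. Its log2 difference of -0.26 (SE 0.09) missed the threshold (adjusted p = 0.0562), and it passed with the preparation as a block (adjusted p = 0.0363), without preparation 1 (0.0152) and without preparation 3 (0.0189). Rgs7, Rgs9, Rgs10 and Rgs14 had log2 differences after 2 h of -0.04, 0.18, 0.13 and -0.07 and did not pass the test.

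Between consecutive times, Rgs2, Rgs4 and Rgs16 rose from 0.5 to 1 h, which made 3 of 10 members against 0.677% of all genes called. The steps were 0.63 (SE 0.09) for Rgs2, 0.55 (SE 0.08) for Rgs4 and 0.45 (SE 0.11) for Rgs16 on the log2 scale, and that of Rgs16 (adjusted p = 0.0333) lost its call without preparation 1 (0.089) and under 4 other settings. From 1 to 2 h, 4 of 10 members rose against 5.33% of genes called, namely the same 3 and Rgs12 (log2 fold change 0.26, SE 0.07, adjusted p = 0.0147; 0.134 without preparation 1 and 0.0502 without preparation 3). With the preparation as a block, 7 of 10 members were called from 1 to 2 h against 23.5% of genes; Rgs8 and Rgs10 were then added as higher (adjusted p = 9.9e-06 and 7.17e-04) and Rgs17 as lower (adjusted p = 0.0319). Rgs8 was also called without preparation 6 (0.0149) or 8 (0.0025) and Rgs10 without preparation 8 (0.0336), and Rgs16 lost its call with all 45 libraries in 1 fit (0.0775). The log2 step of Rgs2 was 0.63 in both intervals, and that of Rgs4 was 0.55 and then 0.54.

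When AP firing was stopped after 0.5 h of Bic, Rgs2 and Rgs16 ended below their levels after uninterrupted Bic. In this SP passive comparison 2 of 10 members were lower, against 0.268% of all genes called. Rgs2 had 167, 158, 178, 176 and 168 CPM after SP TTX, below all 5 libraries of 1 h Bic (log2 fold change -0.51, SE 0.07, adjusted p = 1.56e-05). Rgs16 had 12.4, 16.5, 14.7, 14.7 and 11.4 CPM, lower than after 1 h Bic in every preparation (log2 fold change -0.45, SE 0.10, adjusted p = 0.0229), and this call was lost without preparation 1 (0.0554), without preparation 6 (0.11), with a low-count filter (0.182) and with all 45 libraries in 1 fit (0.877). Rgs4 had 852, 901, 907, 981 and 832 CPM, which was also below all libraries of 1 h Bic, with a log2 difference of -0.24 (SE 0.07) that missed the threshold (adjusted p = 0.278) and passed it in DESeq2's Wald test (adjusted p = 0.021).

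With NMDA added to TTX, Rgs4 was the transcript that fell. In the SP active comparison it had 484, 533, 511, 557 and 545 CPM after TTX/NMDA, without overlap with SP TTX, a log2 fold change of -0.77 (SE 0.07, adjusted p = 5.45e-10) or a fall of 41.5%. Rgs2 had 130, 149, 159, 185 and 147 CPM, overlapping the SP TTX libraries (log2 difference -0.14, SE 0.07, adjusted p = 0.393). Rgs16 had 10.8, 20.6, 19.7, 21.6 and 9.78 CPM, higher than after TTX in preparations 3, 6 and 7 and lower in preparations 1 and 8 (log2 difference 0.24, SE 0.15, adjusted p = 0.496; 0.0305 without preparation 8). Rgs10 was the other member called, higher in all 5 preparations with 15.6, 24.3, 29.3, 31.9 and 16.4 CPM against 15.5, 16.8, 20.5, 18.3 and 14.3 CPM after TTX (log2 fold change 0.45, SE 0.13, adjusted p = 0.046). This last call was lost with DESeq2's size factors in edgeR (adjusted p = 0.0556), with a low-count filter (0.133), with all 45 libraries in 1 fit (0.214), in DESeq2 (0.0748), without preparation 3 (0.0588) and without preparation 7 (0.148).

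These 2 calls among 10 members stood against 4.28% of genes called in the SP active comparison. With the preparation as a block, 4 of 10 members were called against 16.2% of genes, with Rgs8 (log2 fold change 0.31, adjusted p = 0.0274) and Rgs12 (0.21, adjusted p = 0.0325) added as higher. Without preparation 8, Rgs4, Rgs8, Rgs10 and Rgs16 were called, 4 of 10 against 5.89% of genes. In total effect, SP TTX/NMDA against 1 h Bic, Rgs4 (log2 fold change -1.0, SE 0.07, adjusted p = 9.67e-14) and Rgs2 (-0.65, SE 0.08, adjusted p = 4.39e-07) were lower, 2 of 10 against 4.3% of genes called. The fit with a block called 4 of 10 against 27.3% of genes, with Rgs14 lower (adjusted p = 0.0114) and Rgs10 higher (adjusted p = 0.00586) in addition, and Rgs10 was also called without preparation 8 (0.013).

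In the long protocol Rgs2, Rgs4 and Rgs16 were lower after TTX than after uninterrupted Bic, and Rgs4 alone of these 3 was lower again when NMDA was present. In the LP passive comparison 4 of 10 members were called, against 4.65% of all genes. Rgs2 had 257, 245, 301, 270 and 273 CPM after LP TTX, below every library of 2 h Bic (log2 fold change -0.48, SE 0.06, adjusted p = 1.82e-06). Rgs16 had 19.1, 22.7, 26.1, 19.9 and 15.7 CPM, lower in each preparation (log2 fold change -0.40, SE 0.10, adjusted p = 0.0125). Rgs4 had 1280, 1299, 1312, 1426 and 1290 CPM, below all libraries of 2 h Bic by a small margin (log2 fold change -0.23, SE 0.06, adjusted p = 0.0163), and lost its call without preparation 1 (0.0792) and without preparation 3 (0.094). Rgs17 rose, from 62.6, 65.9, 52.1, 64.1 and 56.8 CPM after 2 h Bic to 65.6, 65.6, 71.9, 82.2 and 79.5 CPM after LP TTX, higher in 4 of 5 preparations (log2 fold change 0.27, SE 0.07, adjusted p = 0.0262), and lost its call without preparation 6 (0.118), without preparation 7 (0.08) and with a low-count filter (0.0541). With all 45 libraries in 1 fit, only the call of Rgs2 was kept among these 4. With the preparation as a block, 6 of 10 members and 4978 of 15570 genes were called. Rgs12 and Rgs14 were then lower in addition (adjusted p = 0.0232 and 0.0256).

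In the LP active comparison Rgs4 again fell. TTX/NMDA left 716, 789, 796, 764 and 865 CPM, where LP TTX had at least 1280 CPM in every library. The log2 fold change was -0.76 (SE 0.07, adjusted p = 5.2e-10), a fall of 40.9%. Rgs16 moved the other way, with 24.4, 32.7, 31.9, 30.7 and 17.3 CPM, higher than after LP TTX in all 5 preparations (log2 fold change 0.39, SE 0.13, adjusted p = 0.0271). The call was lost without preparation 3 (0.0626), without preparation 7 (0.0739), with a low-count filter (0.0552), in DESeq2 (0.0632) and with all 45 libraries in 1 fit (0.0906). Rgs2 had 281, 300, 312, 291 and 280 CPM, higher in all 5 preparations by a small amount with overlapping groups (log2 difference 0.11, SE 0.07, adjusted p = 0.26; 0.0122 with the preparation as a block). Rgs7 and Rgs14 fell as well.

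Altogether 4 of 10 members were called in the LP active comparison, 3 lower and 1 higher, against 23.3% of all genes called. In the fit with the low-count filter, 7826 of 16399 genes were called. With the preparation as a block, 8 of 10 were called against 62.1% of genes. Under this fit Rgs2, Rgs8, Rgs10, Rgs12 and Rgs16 were higher and Rgs4, Rgs7 and Rgs14 lower. The count was 2, Rgs4 and Rgs7, without preparation 3, against 20.3% of genes called, and 6 without preparation 8, against 24.4% of genes. The median log2 difference was 0.02 over the 10 members and 0.11 over all genes tested. In the total effect, LP TTX/NMDA against 2 h Bic, 5 of 10 were called against 22.8% of genes: Rgs4 (log2 fold change -0.98, SE 0.07, adjusted p = 2.35e-13), Rgs2 (-0.37, SE 0.06, adjusted p = 3.47e-05), Rgs7 and Rgs14 lower, and Rgs10 higher. Rgs16 had a log2 difference of -0.00 (SE 0.12, adjusted p = 0.991) in the total effect, with mean levels of 27.4 CPM after LP TTX/NMDA and 27 CPM after 2 h Bic. In the total effect with the preparation as a block, 7 of 10 members and 9027 of 15947 genes were called. Rgs8 and Rgs17 were then higher in addition (adjusted p = 0.0473 and 0.0205). Rgs8 was also called without preparation 8 (0.0122) and Rgs17 without preparation 1 (0.0436) or 7 (0.0158).

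**Figure D3:**
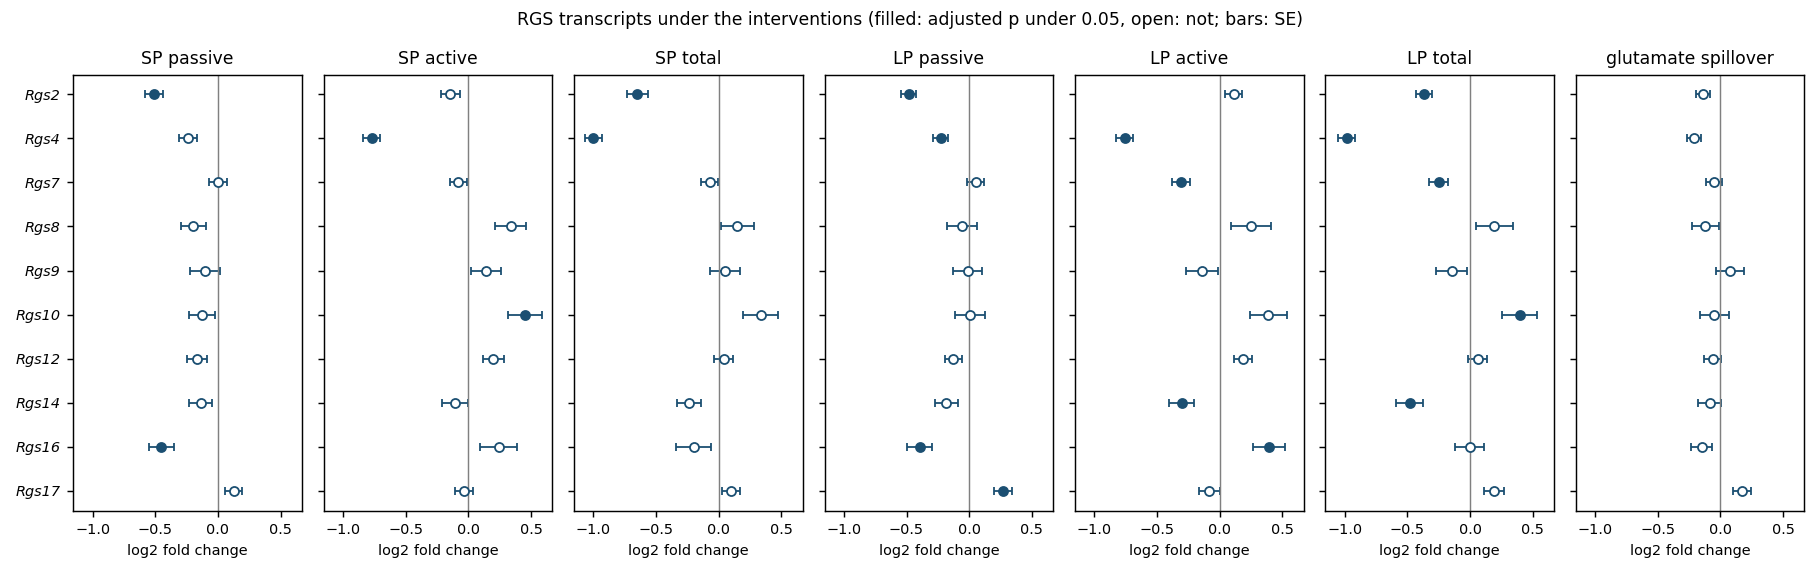
Log2 fold changes of the 10 RGS genes in the passive, active and total effects of both protocols and in the glutamate spillover effect, with SE as bars, filled symbols for an adjusted p under 0.05 and open symbols otherwise. Rgs4 lies at -0.77 and -0.76 in the SP and LP active panels and Rgs2 at -0.51 and -0.48 in the passive panels, and no symbol is filled in the spillover panel.

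The size of an effect was compared between the protocols by an interaction term. For the passive effect, 0 of 10 members differed between LP and SP, against 0.256% of all genes called; no member had an unadjusted p under 0.05, and DESeq2 called 0 as well. For the active effect, edgeR called 0 of 10, against 2.57% of genes, while Rgs2 and Rgs7 had an unadjusted p under 0.05 and DESeq2 called 0. The difference between the LP and SP active effects was 0.03 (SE 0.09) for Rgs4 and 0.17 (SE 0.24) for Rgs16 on the log2 scale. With the preparation as a block, 2 of 10 were called against 25% of genes: Rgs2, whose active effect was more positive in LP (0.27, adjusted p = 0.013), and Rgs7, whose active effect was more negative in LP (-0.22, adjusted p = 0.0114).

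To place the 3 induced transcripts on a common scale, the level left after an intervention was expressed as the share of the Bic-induced rise over the control, computed within each preparation against 1 h Bic for SP and 2 h Bic for LP. Rgs4 kept 72.03% of its rise after SP TTX (SD 7.47, n = 5) and 4.0% after SP TTX/NMDA (SD 9.34, range -10.2 to 14.96), so that in the short protocol with NMDA it stood at about its control level. In LP it kept 79.2% with TTX (SD 5.13) and 27.5% with TTX/NMDA (SD 8.98, range 15.7 to 40.2). Rgs2 kept 51.7% after SP TTX (SD 6.61) and 41.9% after SP TTX/NMDA (SD 13.1), and 62.5% after LP TTX (SD 7.44) and 71.0% after LP TTX/NMDA (SD 5.72). For Rgs4 the TTX and TTX/NMDA shares did not overlap in either protocol, and for Rgs2 they overlapped in both.

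Rgs16 kept 43.7% after SP TTX (SD 17.5) and 62.4% after LP TTX (SD 8.90). With NMDA its shares spread widely, from 21.5 to 136% in SP (mean 72.6, SD 50.4) and from 64.8 to 129% in LP (mean 101, SD 24.6). The low values in SP TTX/NMDA were those of preparations 1 and 8.

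**Figure D4:**
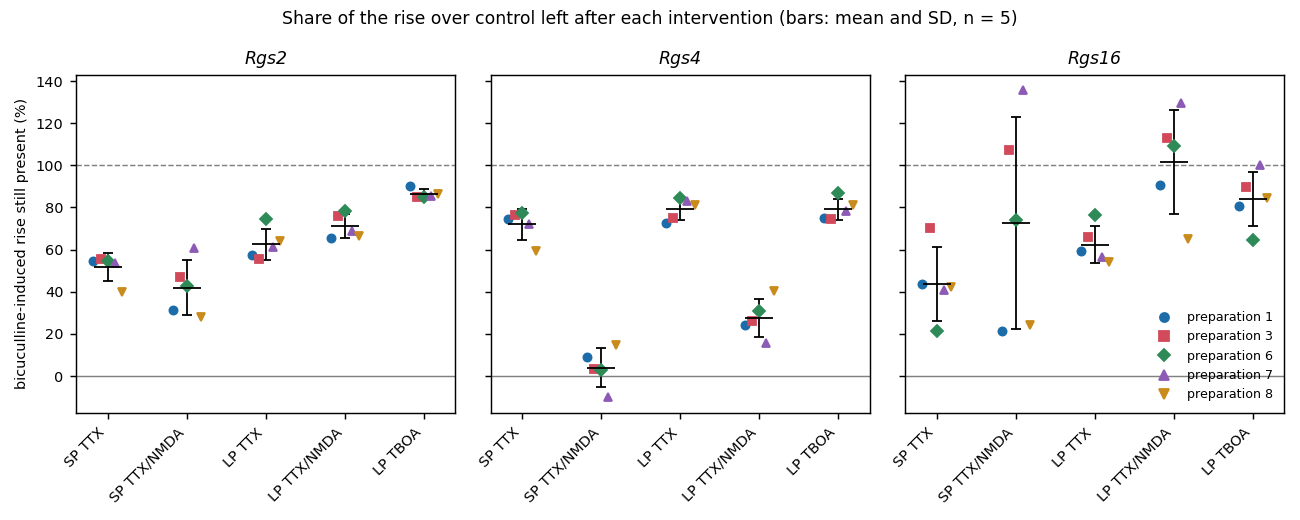
Share of the Bic-induced rise over the control that was left after each intervention, in percent, for Rgs2, Rgs4 and Rgs16, with 1 symbol for each culture preparation and bars for the mean and SD of 5; the solid line is the control level and the dashed line uninterrupted Bic. Rgs4 drops to a mean of 4.0% and 27.5% with TTX/NMDA, whereas Rgs2 stays at 41.9% and 71.0%.

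A ratio of 2 transcripts within a library does not depend on the scaling of that library. The 3 ratios among Rgs2, Rgs4 and Rgs16 were compared between TTX/NMDA and TTX. Exact tests were run on them, but the choice was made after the values had been seen, so the ratios are given as a description only. The log2 ratio of Rgs4 to Rgs2 differed with NMDA by -0.62 in SP and -0.87 in LP, and that of Rgs4 to Rgs16 by -0.94 and -1.14, each lower in 5 of 5 preparations. The ratio of Rgs2 to Rgs16 differed by -0.32 in SP, lower in 4 of 5 preparations, and by -0.26 in LP, lower in 5 of 5.

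The interventions of the long protocol began after 1 h of Bic, so that their end points were also set against 1 h Bic, the level at the time of the switch. Rgs4 was higher after the following hour in TTX (log2 fold change 0.32, SE 0.06, adjusted p = 5.74e-04) and lower after the hour in TTX/NMDA (log2 fold change -0.43, SE 0.07, adjusted p = 1.35e-05), without overlap in either direction. It was thus the only member called in the TTX comparison, 1 of 10 against 7.19% of genes, and DESeq2 added Rgs14 as lower (adjusted p = 0.0469). With the preparation as a block 5 of 10 were called against 29.1% of genes, with Rgs2, Rgs8 and Rgs10 higher and Rgs14 lower in addition (adjusted p = 0.0308, 5.64e-04, 0.00109 and 0.0074). Without preparation 6, Rgs8 was also called (0.0236), and without preparation 8, Rgs8 (0.0301) and Rgs10 (0.0226).

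For TTX/NMDA against 1 h Bic, 8 of 10 members were called, against 21.1% of all genes. In the fit with the low-count filter, 6657 of 15904 genes were called. Rgs2 (log2 fold change 0.27, SE 0.07, adjusted p = 0.00618), Rgs16 (0.52, SE 0.12, adjusted p = 9.19e-04), Rgs8 (0.52, SE 0.14, adjusted p = 0.00618), Rgs10 (0.69, SE 0.14, adjusted p = 1.66e-04) and Rgs12 (0.33, SE 0.08, adjusted p = 0.00135) were higher, each in 5 of 5 preparations. Rgs4, Rgs7 (-0.28, SE 0.07, adjusted p = 0.00349) and Rgs14 (-0.52, SE 0.10, adjusted p = 1.15e-04) were lower in 5 of 5. The call of Rgs2 was lost without preparation 3 (adjusted p = 0.0578), and that of Rgs8 with a low-count filter (0.0548) and in DESeq2 (0.13). Rgs2 and Rgs16 were therefore higher at the end of the hour in TTX/NMDA than at its start, and Rgs4 was lower.

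In the glutamate spillover comparison, in which TBOA was present for the last hour of Bic, edgeR called 0 of 10 members, against 0.602% of all genes; Rgs2, Rgs4 and Rgs17 had an unadjusted p under 0.05. Rgs4 had 1306, 1295, 1335, 1377 and 1290 CPM after LP TBOA, below every library of 2 h Bic (log2 difference -0.21, SE 0.06, adjusted p = 0.108). Rgs2 had 357, 324, 330, 334 and 335 CPM, likewise below every library of 2 h Bic (log2 difference -0.14, SE 0.06, adjusted p = 0.467). DESeq2 called both as lower (adjusted p = 5.51e-04 for Rgs4 and 0.0122 for Rgs2), and the fit with the preparation as a block called Rgs4 (adjusted p = 0.0268), 1 of 10 against 2.67% of genes. Rgs16 was lower in 4 of 5 preparations (log2 difference -0.15, SE 0.09, adjusted p = 0.662) and was called in no setting. Rgs4 kept 79.1% of its Bic-induced rise (SD 5.05), Rgs2 86.4% (SD 2.18) and Rgs16 84.0% (SD 12.98) after TBOA.

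Among the R7 genes, Rgs7 fell with LP TTX/NMDA and was not called in the comparisons of Bic, TTX or TBOA. Its condition means lay between 71.6 and 78.0 CPM in the other 8 conditions and at 63.5 CPM after LP TTX/NMDA. The libraries had 56.4, 62.7, 67.9, 61.7 and 68.6 CPM after LP TTX/NMDA and 69.1, 75.3, 85.6, 79.7 and 80.1 CPM after LP TTX, without overlap (log2 fold change -0.31, SE 0.07, adjusted p = 0.00194). In the LP total effect it fell by 0.25 on the log2 scale (SE 0.07, adjusted p = 0.00992), a call that was lost without preparation 7 (0.0732). Rgs9 had between 7.31 and 8.74 CPM in its condition means and was not called in any of the comparisons.

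Of the R12 genes, Rgs14 was lowest after LP TTX/NMDA, with 12.5, 11.2, 15.1, 10.9 and 13.3 CPM against 14.9, 15.3, 16.01, 13.7 and 16.8 CPM after LP TTX. It was lower in 5 of 5 preparations with overlapping groups (log2 fold change -0.30, SE 0.10, adjusted p = 0.0249; 0.054 without preparation 1 and 0.136 without preparation 3), and the LP total effect was -0.48 (SE 0.10, adjusted p = 5.76e-04) without overlap. Rgs10 had 25.3, 34.5, 38.1, 36.2 and 17.7 CPM after LP TTX/NMDA against 20.1, 24.8, 30.3, 22.9 and 16.9 CPM after LP TTX, higher in 5 of 5 preparations (log2 difference 0.39, SE 0.15, adjusted p = 0.0559; 8.33e-05 with the preparation as a block, 0.0387 without preparation 6 and 6.87e-05 without preparation 8). In the LP total effect Rgs10 rose by a log2 fold change of 0.39 (SE 0.14, adjusted p = 0.0394), a call that was lost with a low-count filter (0.0879), in DESeq2 (0.215) and with all 45 libraries in 1 fit (0.11). Rgs12 had a log2 difference of 0.19 (SE 0.07) in the LP active comparison, higher in 5 of 5 preparations (adjusted p = 0.0667; 0.0244 with a low-count filter and 6.07e-04 with the preparation as a block).

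Rgs8, Rgs10 and Rgs16 had the widest spread of the members between preparations. Averaged over the 9 conditions, Rgs8 had 86.4, 97.6, 130, 123 and 74.6 CPM in preparations 1, 3, 6, 7 and 8, Rgs10 had 17.5, 23.95, 26.6, 25.1 and 15.8 CPM, and Rgs16 had 16.7, 21.7, 21.9, 20.8 and 14.5 CPM. All 3 were lowest in preparation 8 and next lowest in preparation 1. Rgs4, by contrast, ranged from 917 to 1019 CPM and Rgs7 from 68.2 to 77.9 CPM. The summed level of the GABAergic markers Gad1, Gad2 and Slc32a1 was 1687, 1583, 1775, 1756 and 1324 CPM in the same preparations, lowest in preparation 8 and next lowest in preparation 3. The marker sums of astrocytes (614, 639, 566, 815 and 499 CPM), of the oligodendrocyte lineage (147, 142, 116, 154 and 103 CPM) and of microglia (6.28, 6.18, 6.79, 7.03 and 5.45 CPM), in which Rgs10 is known to be abundant, were also lowest in preparation 8. The neuronal marker sum (5927, 5282, 5666, 5538 and 5505 CPM) was lowest in preparation 3 and next lowest in preparation 8. The part of these cell types in the differences was not tested.

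Across the 9 condition means of log2 CPM, Rgs2 and Rgs16 followed each other (Pearson r = 0.97), as did Rgs8 and Rgs12 (r = 0.96), whereas Rgs7 and Rgs10 ran in opposite directions (r = -0.81). The neighbours Rgs8 and Rgs16 had r = 0.89. These values describe 9 points that share libraries and preparations, and no test was made. With the members counted, 5040 genes had a mean of at least 1 CPM and a range of at least 0.5 on the log2 scale. Of the non-members among them, those most like Rgs4 were Pcdh8 (r = 0.997), a protocadherin induced by neuronal activity, Pde4d (0.988), a phosphodiesterase that breaks down cAMP, and Csrnp1 (0.985). Dact1 (0.994), 4931440P22Rik (0.992) and Ccno (0.988) were most like Rgs2, and Tent5a (0.986), Amotl2 (0.986) and 5430416N02Rik (0.982) most like Rgs16. The nearest to Rgs8 were Tac1 (0.988), Adarb2 (0.982) and Pthlh (0.979), and to Rgs10 Nupr1 (0.975), Ccl25 (0.973) and Gad1 (0.970), the GABA-synthesizing enzyme. Rgs12 was most like 2410006H16Rik (0.984), Pnoc (0.981) and Dlx1as (0.980), and Rgs14 most like Coq8a (0.973), Kirrel2 (0.967) and Prss35 (0.967). Rgs7, Rgs9 and Rgs17 had a range under 0.5 and were not matched.

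Of 11 other RGS genes tested in the LP active comparison, 4 rose and 1 fell against 23.3% of all genes called, with a median log2 difference of 0.38 against 0.11 over all genes. The median includes Rgs18 and Rgs21, with at most 1 read in any library of these 2 conditions, and Rgs22, with at most 14. Rgs5, best known from pericytes and like RGS4 and RGS16 a substrate of the N-degron pathway, rose from a mean of 11.1 CPM (SD 1.30) after LP TTX to 17.5 CPM (SD 1.96) after LP TTX/NMDA, without overlap (log2 fold change 0.65, SE 0.10, adjusted p = 1.29e-05). It was also higher in the LP total effect (0.78, adjusted p = 2.35e-07) and the SP total effect (0.43, adjusted p = 0.0145). Of the 5 vascular markers, 2 rose in the LP active comparison, Pdgfrb (0.63, adjusted p = 0.00894) and Abcc9 (1.02, adjusted p = 0.0341), and the part of such cells in the Rgs5 change was not tested. Rgs20, an RZ gene, rose from 10.2 CPM (SD 0.63) to 13.4 CPM (SD 1.00) in the LP active comparison (log2 fold change 0.38, adjusted p = 0.00358), as did Rgs3 (0.40, adjusted p = 0.00779) and the R7 gene Rgs11 (0.36, adjusted p = 0.035). Rgs6, of the R7 family, fell from 32.2 CPM (SD 2.45) to 24.3 CPM (SD 3.05), with a log2 fold change of -0.42 (SE 0.09, adjusted p = 4.85e-04), as did its relative Rgs7 among the members. Against 1 h Bic, the level before the switch, Rgs5 (0.99, adjusted p = 1.06e-08) and Rgs20 (0.49, adjusted p = 0.00131) were higher after LP TTX/NMDA and Rgs6 was lower (-0.40, adjusted p = 0.00117). Rgs6 also had the lowest adjusted p of the other RGS genes in the SP active comparison, 0.0814 with a log2 difference of -0.24 (SE 0.08), which missed the threshold.

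Of 5 partners of the R7 proteins, 3 fell in the LP active comparison, against 23.3% of all genes called in either direction, which is also the share for the lists that follow. Gpr158, a receptor-like membrane protein that binds R7 complexes, had a log2 fold change of -0.83 (SE 0.09, adjusted p = 6.59e-08), and Rgs7bp, the membrane anchor of these complexes, of -0.73 (SE 0.08, adjusted p = 1.74e-08). The fall of Rgs7bp was larger in LP than in SP by the interaction term (-0.64, SE 0.12, adjusted p = 4.65e-04). Of the G alpha subunits, 7 of 13 fell and 1 rose, with Gnal (-0.48, adjusted p = 1.23e-06) and Gnai1 (-0.47, adjusted p = 5.55e-06) as those of lowest adjusted p. Of 14 G beta and gamma subunits, 5 rose and 5 fell, and Gng7 (-0.41, adjusted p = 1.52e-05) and Gng2 (-0.47, adjusted p = 6.06e-05) were among those that fell.

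Of 16 effectors of G proteins, 7 fell and 2 rose in the LP active comparison, against 23.3% of all genes called. Adcy9, an adenylyl cyclase, had log2 fold changes of -1.25 (SE 0.08, adjusted p = 1.52e-12) in LP and -0.80 (SE 0.08, adjusted p = 1.67e-08) in SP. Kcnj6, a subunit of the G protein-gated potassium channels that RGS proteins help to close, had -1.18 (SE 0.10, adjusted p = 2.89e-10) in LP and -0.54 (SE 0.10, adjusted p = 2.56e-04) in SP. Both falls were larger in LP by the interaction term (adjusted p = 0.0266 and 0.00753). In the SP active comparison 4 of the 16 effectors fell and 1 rose, against 4.28% of all genes called. Of 7 genes for receptor shut-off, 4 fell in the LP active comparison, against 23.3% of all genes called. Arrb1, a beta-arrestin, was at -0.48 (adjusted p = 2.33e-06) and Grk5, a receptor kinase, at -0.59 (adjusted p = 5.11e-05). In the N-degron pathway, which degrades RGS4 and RGS16, 3 of 4 genes fell in the same comparison. Among them were the arginyltransferase Ate1 (-0.40, adjusted p = 5.41e-05) and the ubiquitin ligase Ubr1 (-0.36, adjusted p = 4.16e-04).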

How the data were processed

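Poly-A RNA of mouse hippocampal cultures was sequenced on directional libraries, single-end with 75 cycles. The authors aligned the reads with STAR 2.5.4b to GRCm38 and deposited raw counts per Ensembl 94 gene from featureCounts 1.6.5, made by strand and without reads that match several places or genes. Reads shared with near-identical genes are therefore absent from the counts. Conditions and preparation numbers were taken from the labels.

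The counts were tested with edgeR 4.0.16 (R 4.3.3; quasi-likelihood test, TMM normalization) on the libraries of the compared conditions only, keeping genes with at least 1 read and adjusting p by Benjamini-Hochberg over all genes. Fitting was tested on simulated data. Levels are TMM CPM over all 45 libraries, with a prior count of 2 on the log2 scale, and per-kilobase levels use GENCODE M21 exons. Depth ranged from 11316580 to 81129276 counts, and the scarcest RGS gene had at least 69 reads in every library. Alternatives were DESeq2 1.42.0 (its Wald test, and its size factors in edgeR), edgeR's filterByExpr filter, a replicate block with that filter, all 45 libraries in 1 fit, and leaving out each preparation. The authors treated each culture preparation as 1 replicate, and libraries with the same number in their labels were read as 1 preparation. The labels give only the number. Across 13592 genes with a mean of at least 1 CPM, deviations of same-numbered libraries from the group means correlated with a mean r of 0.35 to 0.55 per comparison. Single pairs lay between -0.20 and 0.73.

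All 10 members are named. For likeness, the 3 genes with the highest Pearson r over the 9 condition means were named for each member with a range of at least 0.5 on the log2 scale. Of each pathway list, the 2 genes with the lowest adjusted p in the LP active comparison were named, and other RGS genes called in any comparison. The members and lists were chosen with earlier results of these data known.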

Additional observations from a re-analysis of the deposited data

Results flagged for a closer look

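Of 90 groups of 5 libraries (10 RGS genes in 9 conditions), 2 held a library far from the other 4 by Dixon's criterion, which chance alone meets in about 1 in 20 groups. Rgs4 after LP TTX had 1426 CPM in preparation 7, whereas the other 4 libraries lay between 1280 and 1312 CPM. Rgs12 after 1 h Bic had 45.1 CPM in preparation 7, whereas the other 4 lay between 38.1 and 39.8 CPM. Both were the highest of their group.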

How the results depend on the processing

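No called change of a member turned its direction under the 10 alternatives, and of 160 member results 72 were called in at least 1 setting and 88 in none. Pairing the libraries by preparation (the replicate block, run with the low-count filter) lost no call and moved the number of members called in the SP active comparison from 2 to 4, in the SP total effect from 2 to 4, from 1 to 2 h Bic from 4 to 7, in the LP active comparison from 4 to 8, in the spillover comparison from 0 to 1, for LP TTX against 1 h Bic from 1 to 5, and for the difference between the active effects from 0 to 2. Pairing also moved the LP passive count from 4 to 6, the LP total count from 5 to 7 and the count for 2 h Bic against control from 5 to 6. The SP active count was 1 with DESeq2's Wald test, 1 with its size factors, 1 with the filter and 1 with all 45 libraries in 1 fit. The SP passive count was 1 with the filter and 1 with all 45 libraries, where the LP passive count was 1. DESeq2 called 2 members in the spillover comparison and 2 for LP TTX against 1 h Bic. Leaving out 1 preparation gave 1 to 4 calls in the SP active, 1 to 2 in the SP passive and 2 to 6 in the LP active comparison, and 1 to 3 for LP TTX against 1 h Bic. The cause of these differences was not tested. Depth limits Rgs9 most, with 69 reads in its shallowest library.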
